A study of Mus musculus with 18 samples.

Results

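The interferon-induced genes examined here are 39 transcripts that cells raise when they meet an interferon, and they were followed in mouse liver with and without the protein AIM. Members were chosen by gene symbol, each gene was read from its probe set with the highest mean intensity, and 37 of the 39 had a probe set of their own. Isg15 and Ifi44 had none, and Oas3 and Mx2 were too dim to be tested, which left 35 members among 14694 genes tested. Total liver RNA was hybridised to 18 Affymetrix Mouse Genome arrays, 3 for each of 6 groups, all of the C57BL/6 background. AIM, apoptosis inhibitor of macrophage, is a secreted protein made mainly by tissue macrophages, and its gene is Cd5l. The groups were AIM-KO mice (AIM-/-) on normal chow, AIM-KO mice after 12 weeks and after 20 weeks of a high-fat diet (HFD), and wild-type (WT, AIM+/+) mice on chow and after the same 2 periods. Age and sex are not given in the labels, so that time on the diet and age cannot be told apart, and the labels do not say whether each of the biological replicates is a separate animal, so that p-values measure the spread between these samples.

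Interferons are cytokines that bind receptors on the cell surface and act through JAK kinases and STAT proteins. Type I and type III interferons act through a complex that contains STAT2 and IRF9 and binds the interferon-stimulated response element, whereas interferon gamma acts at the gamma-activated site. Many of the genes so induced encode sensors of foreign RNA and DNA, enzymes that block viral replication, or GTPases that attack the vacuoles of intracellular microbes, and in the liver both hepatocytes and macrophages can express them. The members were grouped by role as transcription factors (Irf7, Irf9, Stat2), RNA and DNA sensors, RNA-directed antiviral enzymes and binders, other antiviral effectors, the ISG15 system, GTPases induced by interferon gamma, and other interferon-induced genes.

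Cd5l read 4 to 23.5 on the 9 AIM-KO arrays and 702.6 to 1926.8 on the 9 WT arrays. Albumin, the defining product of hepatocytes, read 6138.8 to 11103.8 on every array. Xist, which female cells express from an inactive X chromosome, read 2921.6 to 3049.7 on 4 arrays, all 3 of AIM-KO at 20 weeks and WT at 20 weeks replicate 2, and 7.8 to 26.2 on the other 14, while the Y-linked Eif2s3y read 3.9 to 7.3 on those 4 and 498.4 to 675.1 on the other 14. For the members' calls that rest on AIM-KO at 20 weeks, and for the genes named there as main examples, the outcome with a term for these 4 arrays is also given. That term can be separated from genotype only through WT replicate 2 against WT replicates 1 and 3 at 20 weeks. In whole-liver RNA a lower share of expressing cells and less RNA per cell cannot be told apart.

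Promoters of 27 of the 39 members were found in RefSeq (GRCm38.p6) as windows of 300 bases, 250 before the start of the transcript and 50 after it. The core of the interferon-stimulated response element, searched as GAAANNGAAA on both strands with overlapping matches counted, was present for 17 of the 27 members (63%), against 1079 of 27025 genes in the table (3.99%). The gamma-activated site, searched as TTCNNNGAA, was present for 6 of the 27 members (22.2%), against 2582 genes (9.55%). The 4 windows are printed 5′ to 3′ on the strand of the gene, with the matches to GAAANNGAAA or its reverse complement in capitals. Ifit3 (chr19:34583279-34583578, + strand), Gbp2 (chr3:142620413-142620712, + strand) and Ifi207 (chr1:173741760-173742059, - strand) are shown because their course from 12 to 20 weeks differed between the genotypes, and Bst2 (chr8:71537423-71537722, - strand) because it holds 2 overlapping matches and passed the test in no comparison.
Ifit3: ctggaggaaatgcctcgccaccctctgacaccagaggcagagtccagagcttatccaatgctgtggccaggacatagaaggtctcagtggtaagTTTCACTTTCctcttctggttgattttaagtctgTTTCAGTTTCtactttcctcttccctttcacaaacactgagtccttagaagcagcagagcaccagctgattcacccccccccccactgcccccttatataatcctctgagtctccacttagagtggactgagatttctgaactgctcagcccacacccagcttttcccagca
Gbp2: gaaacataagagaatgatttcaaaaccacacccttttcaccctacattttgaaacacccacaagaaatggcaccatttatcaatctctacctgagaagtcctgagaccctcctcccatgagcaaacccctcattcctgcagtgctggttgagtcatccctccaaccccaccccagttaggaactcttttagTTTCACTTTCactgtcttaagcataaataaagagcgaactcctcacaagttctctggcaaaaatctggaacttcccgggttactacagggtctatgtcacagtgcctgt
Ifi207: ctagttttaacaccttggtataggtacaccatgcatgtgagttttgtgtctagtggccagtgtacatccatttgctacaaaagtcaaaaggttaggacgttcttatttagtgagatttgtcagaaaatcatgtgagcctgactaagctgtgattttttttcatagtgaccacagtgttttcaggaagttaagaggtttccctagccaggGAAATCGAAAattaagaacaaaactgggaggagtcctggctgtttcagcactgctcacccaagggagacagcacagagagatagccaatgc
Bst2: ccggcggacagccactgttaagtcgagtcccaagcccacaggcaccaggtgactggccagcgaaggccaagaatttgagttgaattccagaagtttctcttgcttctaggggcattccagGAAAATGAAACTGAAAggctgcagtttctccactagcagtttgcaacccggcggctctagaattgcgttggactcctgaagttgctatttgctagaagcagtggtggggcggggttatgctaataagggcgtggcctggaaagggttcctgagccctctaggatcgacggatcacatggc
The first match began 156 bases before the start of the transcript in Ifit3, 59 bases before it in Gbp2, 41 bases before it in Ifi207 and 130 bases before it in Bst2. The windows of both annotated starts of Ifit2 held no match, which says only that these letters are not in those windows. Of the members in the table, 7 of 11 called in AIM-KO livers at 12 weeks against chow held the element core, and so did 8 of 13 tested members that were not called there.

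Across all arrays the members were highest after 12 weeks of HFD in livers that lack AIM. Of 35 members, 25 had their highest group mean there, 4 in AIM-KO at 20 weeks, 1 in AIM-KO on chow, 4 in WT at 20 weeks and 1 in WT at 12 weeks. The lowest mean was in AIM-KO on chow for 11 members and in WT on chow for 17. How many of all genes had their highest or lowest mean in each group was not counted, so these numbers do not set the members apart. Relative to the mean of the WT chow arrays, the median member stood at -0.03, 0.29 and 0.13 on the log2 scale on the 3 AIM-KO chow arrays, at 0.74, 0.91 and 0.97 at 12 weeks, and at 0.76, 0.67 and 0.44 at 20 weeks. In WT livers it stood at 0.08, -0.07 and -0.02 on chow, at 0.47, 0.36 and 0.11 at 12 weeks, and at 0.61, 0.58 and 0.40 at 20 weeks. The AIM-KO arrays at 12 weeks thus lay above all WT arrays at 12 weeks, whereas at 20 weeks the genotypes overlapped. The median over all 14694 genes stayed between -0.04 and 0.08 on the same scale on each array.

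**Figure D1:**
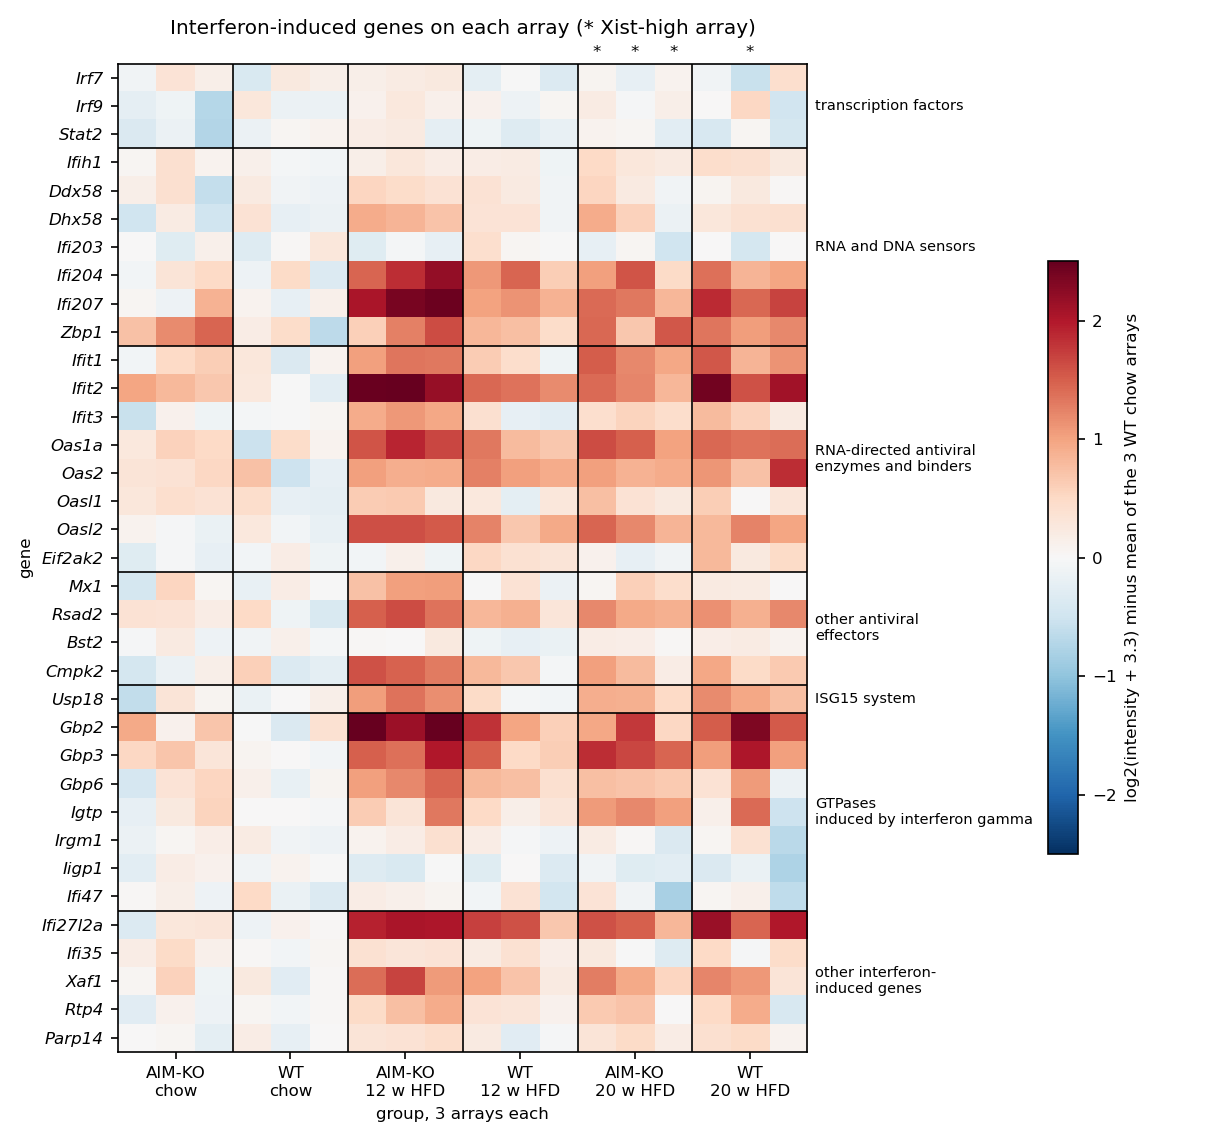
Each row is 1 of the 35 tested members, grouped by role, and each column 1 array; colour gives log2(intensity + 3.3) minus the mean of the 3 WT chow arrays (red higher, blue lower), and stars mark the 4 arrays with high Xist. The darkest red lies in the AIM-KO columns at 12 weeks, and the transcription factors Irf7, Irf9 and Stat2 are paler.

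After 12 weeks of HFD, AIM-KO livers had higher levels of 18 of the 35 members than AIM-KO livers on chow, and no member was lower. This was 51.4% of the members, where 11.4% of all genes tested were called higher (limma, Benjamini-Hochberg adjusted p under 0.05), and the median log2 change was 0.83 for the members and 0.04 for all genes. Changes are given as log2(intensity + 3.3), which understates the change of dim genes, with the standard error of the fit and n = 3 arrays per group.

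Among the RNA-directed enzymes and binders, 5 of 8 rose in this comparison. Ifit2, which binds viral RNA, read 110.2, 116.3 and 90.4 in AIM-KO livers at 12 weeks, against 37.8, 32.9 and 29.7 on chow, a log2 change of 1.57 ± 0.22 (adjusted p = 8.3e-05). Oasl2, a relative of the oligoadenylate synthetases, read 52.2, 52.1 and 49.7 against 16, 14.5 and 12.9, a change of 1.62 ± 0.22 (adjusted p = 5.8e-05). In both genes the lowest array on the diet stood above the highest on chow. Oas1a, which makes the short oligoadenylates that activate RNase L, rose by 1.27 ± 0.22, Ifit3 by 1.18 ± 0.19 and Ifit1 by 0.89 ± 0.24 (adjusted p = 0.00058, 0.00026 and 0.014). Oas2 changed by 0.55 ± 0.29 (adjusted p = 0.21), Oasl1 by 0.16 ± 0.21 (adjusted p = 0.69), and Eif2ak2, the kinase PKR that halts translation, by 0.16 ± 0.15 (adjusted p = 0.53).

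Of the RNA and DNA sensors 3 of 7 rose. Ifi207, a member of the DNA-binding PYHIN family, read 119, 149.5 and 159.1 in AIM-KO livers at 12 weeks, against 27.5, 23.7 and 51 on chow, a log2 change of 2.02 ± 0.23 (adjusted p = 1.2e-05). Its relative Ifi204 rose by 1.58 ± 0.30 (adjusted p = 0.0012), and Ifi203, of the same family, changed by -0.13 ± 0.23 (adjusted p = 0.78). Ifi203 was read from 1 probe set of mean intensity 28.8, and 3 others annotated to it together with other genes were left out. Among the helicases that sense RNA, Dhx58 rose by 1.10 ± 0.25 (adjusted p = 0.0045), while Ddx58, which encodes RIG-I, changed by 0.47 ± 0.21 (adjusted p = 0.14) and Ifih1, which encodes MDA5, by 0.02 ± 0.12 (adjusted p = 0.93). Members of 1 family thus gave unequal values, although the difference between members was not tested. Zbp1, a sensor of Z-form nucleic acids, changed by 0.04 ± 0.32, but its second probe set gave 1.19, so that its 2 probe sets disagree.

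Among the remaining effectors, Cmpk2, a mitochondrial nucleotide kinase, rose by 1.61 ± 0.28 (adjusted p = 0.00052) and Rsad2, which encodes viperin, by 1.20 ± 0.19 (adjusted p = 0.00026). Mx1, of a family of antiviral GTPases, rose by 0.89 ± 0.26 (adjusted p = 0.022). Bst2, or tetherin, which holds budding virions at the cell surface, read 1033.4, 1023.8 and 1193.9 at 12 weeks, against 991.7, 1181.3 and 922.6 on chow. The Bst2 arrays overlapped, and the change of 0.07 had a 95% interval of -0.14 to 0.29. Usp18, which removes ISG15 from proteins and limits signalling from the type I receptor, read 235.1, 293.9 and 256 at 12 weeks, against 72.8, 140.7 and 118.6 on chow, a rise of 1.26 ± 0.21 (adjusted p = 0.00037).

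Among the 7 GTPases the guanylate-binding proteins Gbp2, Gbp3 and Gbp6 rose, by 2.03 ± 0.35, 1.11 ± 0.26 and 1.07 ± 0.25 (adjusted p = 0.00058, 0.0061 and 0.0057). The second probe set of Gbp2 (mean intensity 64.83, against 74.91 for the one used) gave 1.25. The 4 immunity-related GTPases did not pass the test, and their changes were 0.56 ± 0.33 for Igtp, 0.19 ± 0.21 for Irgm1, 0.10 ± 0.27 for Ifi47 and -0.25 ± 0.15 for Iigp1. Of the other genes, Ifi27l2a, an inducible mitochondrial protein, read 249.8, 268.2 and 264 at 12 weeks, against 49.3, 77.6 and 79 on chow, a rise of 1.90 ± 0.26 (adjusted p = 6.5e-05). Xaf1, a promoter of apoptosis, rose by 1.21 ± 0.27 and the receptor transporter Rtp4 by 0.83 ± 0.24 (adjusted p = 0.0035 and 0.024). The call was kept without any 1 array for 15 of the 18 genes. Ifit1 lost it without AIM-KO chow replicate 1 or AIM-KO 12 weeks replicate 2, Mx1 without either of these or AIM-KO 12 weeks replicate 3, and Rtp4 without any of these 3 or AIM-KO chow replicate 3. Xaf1 lost it with the mean of its probe sets (adjusted p = 0.065), and Mx1 with only the 2 groups in the fit (adjusted p = 0.06).

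**Figure D2:**
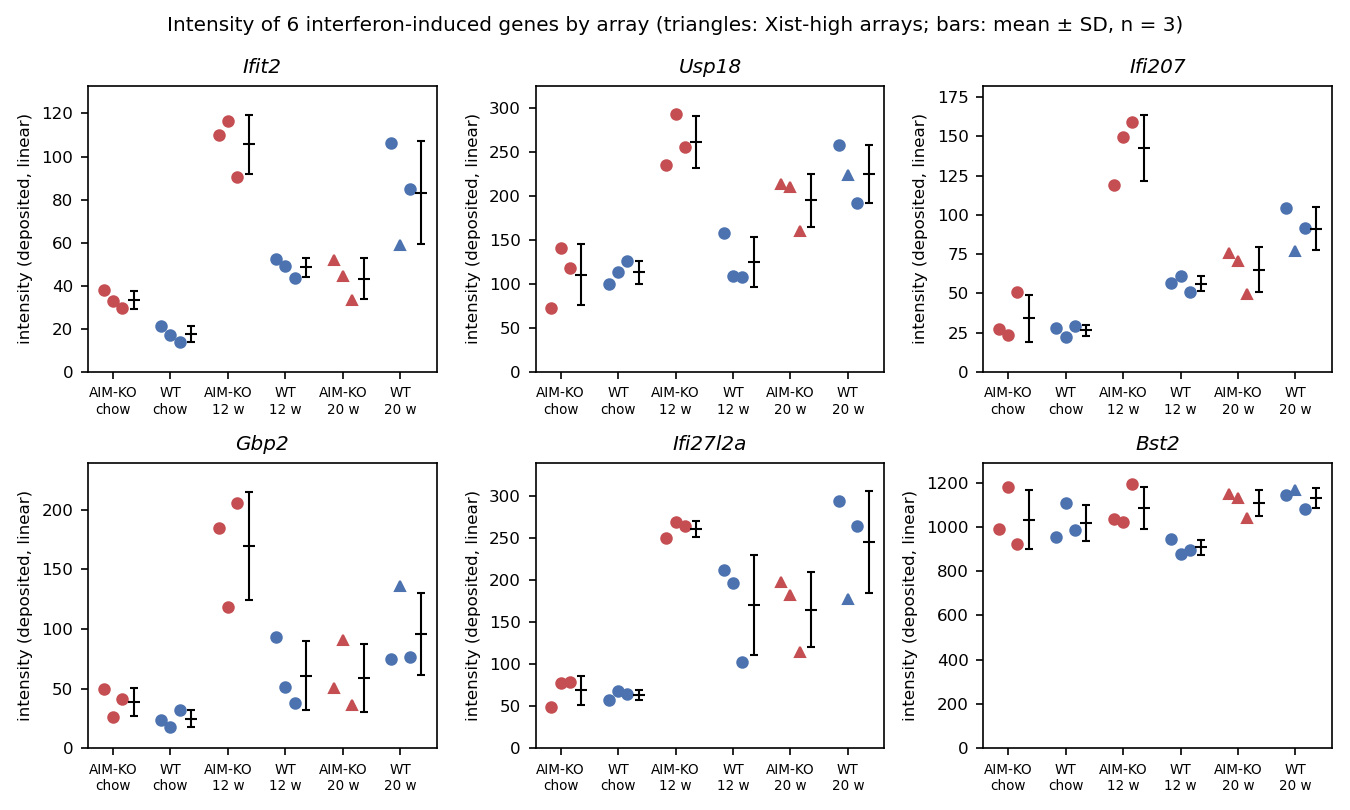
Deposited intensity (linear, axes from 0) of 6 members on each array, AIM-KO in red and WT in blue, with triangles for arrays of high Xist and bars for the mean ± SD of 3 arrays. Ifit2, Ifi207 and Gbp2 are highest in AIM-KO livers at 12 weeks, Ifi27l2a rises on the diet in both genotypes, and Bst2 differs little between groups on its axis.

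In WT livers 7 members passed the test at 12 weeks. These 7 of 35 were higher than on WT chow and none lower, 20% against 3.52% of all genes called higher, and the median change was 0.25. The called members were Ifit2 (1.32 ± 0.22, adjusted p = 0.0012), Ifi27l2a (1.32 ± 0.26, adjusted p = 0.0048), Oas2 (1.07 ± 0.29, adjusted p = 0.034), Ifi207 (1.0 ± 0.23, adjusted p = 0.014), Oasl2 (0.95 ± 0.22, adjusted p = 0.014), Oas1a (0.93 ± 0.22, adjusted p = 0.018) and Rsad2 (0.67 ± 0.19, adjusted p = 0.046). Ifit2 and Ifi27l2a kept the call without any 1 array, and they were the 2 left without WT 12 weeks replicate 1. Leaving out WT chow replicate 2 gave 4 calls, as did leaving out WT chow replicate 3, and there were 3 with only the 2 groups in the fit. The Rsad2 arrays on the diet overlapped those on chow, and its other probe sets gave 0.465 and 0.09. Rsad2 lost the call with no dim filter, with the mean of probe sets and with a term for the actin 3′ to 5′ ratio. Oas2 lost it with no dim filter and with the actin term, and kept it without 1 array in 1 of 6 fits. Ifit3 and Usp18, which rose in AIM-KO livers at this time, changed in WT by -0.02 ± 0.19 (adjusted p = 0.97) and 0.12 ± 0.21 (adjusted p = 0.81).

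After 20 weeks, WT livers had higher levels of 15 of the 35 members than on WT chow (42.9%, against 8.72% of all genes), and none was lower. The median change was 0.43, and the comparison uses the same chow arrays as that at 12 weeks. Ifit2 read 106.2, 58.8 and 84.7 in WT at 20 weeks, against 21.5, 17.2 and 13.9 on chow, a rise of 2.03 ± 0.22 (adjusted p = 6.9e-06). All 3 arrays on the diet stood above those on chow, and the lowest was the WT array with high Xist. Ifi27l2a rose by 1.87 ± 0.26 (adjusted p = 9.1e-05), Gbp2 by 1.79 ± 0.35 (adjusted p = 0.0021), Ifi207 by 1.66 ± 0.23 (adjusted p = 9.5e-05) and Oas1a by 1.40 ± 0.22 (adjusted p = 0.00033). The second Gbp2 probe set gave 1.12. Gbp3, Oas2, Zbp1, Ifit1, Rsad2, Ifi204, Oasl2, Usp18, Xaf1 and Eif2ak2 rose by 0.51 to 1.36. Eif2ak2 kept its call without 1 array in 2 of 6 fits, Xaf1 in 2, Ifi204 in 3 and Zbp1 in 4, and Eif2ak2, Xaf1 and Zbp1 lost it with the mean of their probe sets. Oas2, Xaf1 and Eif2ak2 lost it with only the compared groups in the fit. Ifi204, Eif2ak2 and Zbp1 lost it with a term for the actin 3′ to 5′ ratio, and Xaf1 with the term for high Xist.

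The calls in AIM-KO livers at 12 weeks and in WT livers at 20 weeks come from separate arrays. They shared 12 genes, which was 66.7% of the AIM-KO list and 80% of the WT list. Over all genes, those called higher in both were 51.6% of the AIM-KO list and 67.3% of the WT list. These were Ifit1, Ifit2, Oas1a, Oasl2, Usp18, Rsad2, Ifi27l2a, Gbp2, Gbp3, Ifi204, Ifi207 and Xaf1. Ifit3, Mx1, Dhx58, Gbp6, Cmpk2 and Rtp4 were called in the AIM-KO comparison and not in WT, and Oas2, Eif2ak2 and Zbp1 the other way round.

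After 20 weeks, AIM-KO livers had higher levels of 9 of the 35 members than on AIM-KO chow (25.7%, against 4.29% of all genes), with a median change of 0.50 and no member lower, set against the chow arrays also used at 12 weeks. They were Ifi27l2a (1.22 ± 0.26, adjusted p = 0.0069), Oasl2 (1.21 ± 0.22, adjusted p = 0.002), Gbp3 (1.16 ± 0.26, adjusted p = 0.011), Oas1a (0.94 ± 0.22, adjusted p = 0.014), Ifi207 (0.92 ± 0.23, adjusted p = 0.02), Ifit1 (0.89 ± 0.24, adjusted p = 0.03), Usp18 (0.84 ± 0.21, adjusted p = 0.019), Rsad2 (0.72 ± 0.19, adjusted p = 0.026) and Ifit3 (0.66 ± 0.19, adjusted p = 0.038). The Ifi207 arrays overlapped those on chow. With the term for the arrays of high Xist only Ifi27l2a was called (1.86, adjusted p = 0.044), and Gbp3 was at 0.18 (adjusted p = 0.89). The count of called members was 2 without AIM-KO 20 weeks replicate 1, 3 without AIM-KO 20 weeks replicate 2 and 4 without AIM-KO chow replicate 1. Oasl2 and Ifi27l2a were called in each of these fits. Ifit2 and Gbp2, which rose after 12 weeks, changed by 0.33 ± 0.22 (adjusted p = 0.45) and 0.50 ± 0.35 (adjusted p = 0.48) after 20. With the same term Ifit2 was at 0.99 (adjusted p = 0.19) and Gbp2 turned to -0.31 (adjusted p = 0.87), so that neither value has a settled size.

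Set against WT on the same diet, AIM-KO livers had the largest median difference at 12 weeks. There 31 of 35 members had a value above 0, with a median difference of 0.48 against 0.01 over all genes. Only Ifi207 and Ifit3 passed the test, both higher, 5.71% of the members against 0.0408% of all genes called higher. Ifi207 read 119, 149.5 and 159.1 in AIM-KO at 12 weeks, against 56.3, 60.8 and 51.1 in WT, a difference of 1.29 ± 0.23 (adjusted p = 0.044). Ifit3 read 187.6, 207.7 and 192.4 in AIM-KO, against 127.7, 83.6 and 79.6 in WT, a difference of 1.02 ± 0.19 (adjusted p = 0.047). In neither gene did the groups overlap. Usp18 (1.06 ± 0.21, adjusted p = 0.066), Ifit2 (1.07 ± 0.22, adjusted p = 0.084) and Gbp2 (1.48 ± 0.35, adjusted p = 0.15) differed by similar or larger amounts without passing. For Gbp2 the second probe set gave only 0.66. These calls are close to the threshold: neither gene was called with quantile normalization, with no dim filter or with a term for the actin 3′ to 5′ ratio, Ifit3 was also lost with the mean of probe sets and with only the 2 groups in the fit, and 0 members were called without WT 12 weeks replicate 2 or 3 or without any 1 of the 3 AIM-KO arrays. Without WT 12 weeks replicate 1 the calls were 5, Ifit2, Ifit3, Usp18, Gbp2 and Ifi207, with 0.429% of all genes called higher.

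On chow and at 20 weeks no member passed the limma test between the genotypes. On chow the median difference was 0.09 and 0.0272% of all genes were called. Ifit2 read 37.8, 32.9 and 29.7 in AIM-KO on chow, against 21.5, 17.2 and 13.9 in WT, a difference of 0.83 ± 0.22 (adjusted p = 0.3) without overlap of the arrays. Zbp1 differed by 1.12 ± 0.32 (adjusted p = 0.37), and by 0.15 on its second probe set. At 20 weeks the median difference was 0.01 and 0.157% of all genes were called. Ifit2 read 51.9, 44.7 and 33.2 in AIM-KO at 20 weeks, against 106.2, 58.8 and 84.7 in WT, a difference of -0.88 ± 0.22 (adjusted p = 0.089). With the term for the arrays of high Xist this difference was -0.44 (adjusted p = 1). Igtp, an immunity-related GTPase, read 596.9, 660.9 and 584.2 in AIM-KO at 20 weeks, against 313.7, 765.8 and 199.8 in WT, where the high value is the array with high Xist. Its difference of 0.75 (adjusted p = 0.33) turned to -0.32 with that term (adjusted p = 1). Without that WT array 4 members were called, Igtp higher in AIM-KO and Ifit2, Ifi35 and Eif2ak2 lower, while the share of all genes called was 6.45%, against 0.157% on all arrays.

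The median change from 12 to 20 weeks had opposite signs in the genotypes. Within AIM-KO livers 28 of 35 members had a change below 0 and within WT livers 28 of 35 had one above 0, with median changes of -0.27 and 0.17. The medians over all genes were -0.01 and 0.002. All 3 AIM-KO arrays at 20 weeks were high in Xist and none at 12 weeks was. Within AIM-KO livers the change over time thus cannot be told apart from that difference. In AIM-KO livers Gbp2 (-1.52 ± 0.35, adjusted p = 0.022), Ifit2 (-1.24 ± 0.22, adjusted p = 0.0056) and Ifi207 (-1.10 ± 0.23, adjusted p = 0.014) fell, 8.57% of the members against 2.12% of all genes called lower. Of these Ifit2 was called without any 1 array, Ifi207 lost the call without AIM-KO 12 weeks replicate 2 or AIM-KO 20 weeks replicate 3, Gbp2 was called in 2 of 6 such fits, and all 3 lost it with the term for the arrays of high Xist. Gbp2 also lost it with the mean of probe sets, and its second probe set changed by -0.43. With only the 2 groups in the fit 8 members were called lower, and 5.25% of all genes were. In WT livers no member passed limma's test, and 0.0204% of all genes were called.

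The difference between these 2 changes was tested directly, as the change from 12 to 20 weeks in AIM-KO minus that in WT. It was below 0 for 32 of 35 members, with a median of -0.43 against -0.005 over all genes, and 5 members were called, all lower in AIM-KO (14.3% of the members, against 1.04% of all genes called lower). They were Gbp2 (-2.19 ± 0.50, adjusted p = 0.036), Ifit2 (-1.95 ± 0.31, adjusted p = 0.0072), Ifi207 (-1.76 ± 0.33, adjusted p = 0.014), Usp18 (-1.27 ± 0.29, adjusted p = 0.038) and Ifit3 (-1.08 ± 0.26, adjusted p = 0.049). Their roles differ. Ifit2 and Ifit3 were grouped as RNA-directed, and Ifi207 belongs to a DNA-sensing family. Gbp2 is a GTPase of host defence and Usp18 curbs interferon signalling.

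The arrays behind the 5 calls are as follows. In AIM-KO livers Ifit2 read 110.2, 116.3 and 90.4 at 12 weeks and 51.9, 44.7 and 33.2 at 20 weeks. In WT livers it read 52.6, 49.2 and 43.6 at 12 weeks and 106.2, 58.8 and 84.7 at 20 weeks. The 2 times did not overlap in either genotype. Usp18 averaged 261.7 ± 29.8 at 12 weeks and 195 ± 30.3 at 20 weeks in AIM-KO, and 124.8 ± 28.5 and 224.7 ± 33 at these times in WT (SD, n = 3 each). Gbp2 averaged 169.4 ± 45.4 and 59.23 ± 28.5 in AIM-KO, and 60.93 ± 28.9 and 95.8 ± 34.7 in WT (SD, n = 3 each). For Gbp2 the WT arrays of the 2 times overlapped, and its second probe set gave a difference between the changes of -0.67 in place of -2.19. The other members nearest to the threshold were Ifi27l2a (-1.24 ± 0.36, adjusted p = 0.1) and Rsad2 (-0.89 ± 0.27, adjusted p = 0.12).

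These 5 calls did not hold equally. When 1 array was left out, Ifit2 was called in 12 of 12 fits, Ifi207 in 8, Gbp2 in 3, and Usp18 and Ifit3 in 2. Ifit3 also lost the call with the replicate block (adjusted p = 0.051), with the lowered pseudocount and with quantile normalization, and was called in 1 of 9 settings other than left-out arrays. Only Ifit2 remained without WT 12 weeks replicate 3, AIM-KO 12 weeks replicate 2, WT 20 weeks replicate 1 or AIM-KO 20 weeks replicate 3. Ifit2 and Ifi207 remained without WT 12 weeks replicate 2, AIM-KO 12 weeks replicate 1 or 3, WT 20 weeks replicate 3 or AIM-KO 20 weeks replicate 1, and Gbp2 was called beside them without AIM-KO 20 weeks replicate 2. With the term for the arrays of high Xist no member was called: the values were -1.51 for Ifit2 (adjusted p = 0.15), -2.73 for Gbp2 (adjusted p = 0.12), -1.55 for Ifi207 (adjusted p = 0.22), -1.27 for Usp18 (adjusted p = 0.27) and -1.12 for Ifit3 (adjusted p = 0.28). When the WT array with high Xist was left out, 6 members were called, these 5 and Ifi27l2a, and 3% of all genes were called lower. The same direct test gave no call for the change from chow to 12 weeks, where 0.00681% of all genes were called. It gave none for the change from chow to 20 weeks either, where 0 genes (0%) were called.

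**Figure D3:**
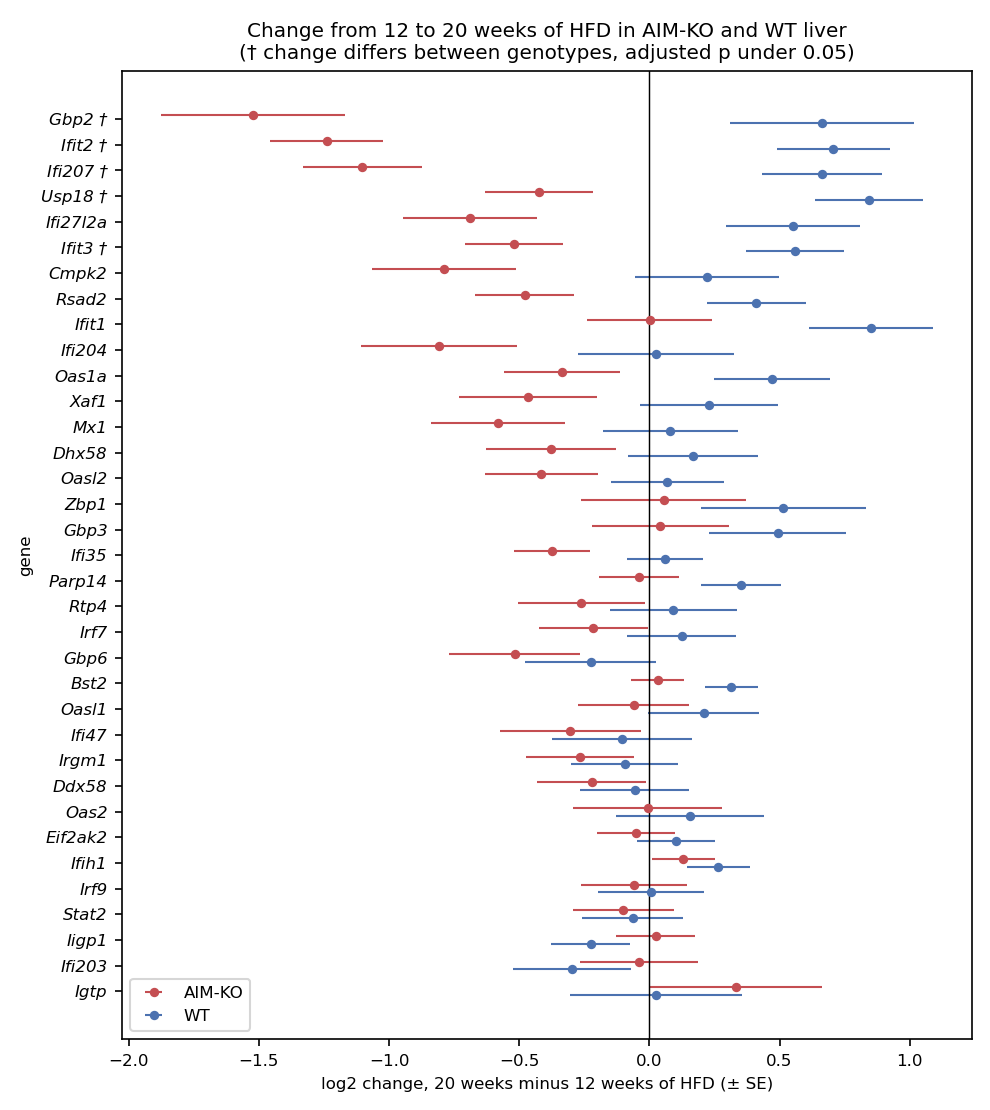
Log2 change from 12 to 20 weeks of HFD ± SE for each of the 35 members, AIM-KO in red and WT in blue, sorted by the difference between the genotypes, with a dagger at the 5 members whose difference was called. Gbp2, Ifit2 and Ifi207 lie between -1.10 and -1.52 in AIM-KO and between 0.66 and 0.71 in WT.

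Of the 35 members, 21 were called in at least 1 of the 12 comparisons and 14 in none. The 21 are 60% of the members, and 26% of all genes tested were called in at least 1. The 14 were the transcription factors Irf7, Irf9 and Stat2, the RNA sensors Ifih1 and Ddx58, Ifi203 and Oasl1, the immunity-related GTPases Igtp, Irgm1, Iigp1 and Ifi47, and Bst2, Ifi35 and Parp14. Irf7, the regulator that amplifies type I interferon production, read 116.4, 120.6 and 123.8 in AIM-KO at 12 weeks, against 97.8, 133.6 and 115.6 on AIM-KO chow, and its change of 0.07 had a 95% interval of -0.37 to 0.50. Irf9, the DNA-binding part of the complex, changed by 0.52 there (95% interval 0.09 to 0.94, adjusted p = 0.091) and by 0.02 in WT at 20 weeks. In AIM-KO at 12 weeks it was called with the term for high Xist (adjusted p = 0.041) and with the actin term (adjusted p = 0.032). Stat2 changed by 0.47 (95% interval 0.06 to 0.88, adjusted p = 0.11), but its second probe set gave -0.52 and the mean of both -0.02. The intervals of Irf9 and Stat2 do not exclude rises of the size seen in several called members. Iigp1, which disrupts parasite vacuoles, was lower on all 3 WT arrays at 20 weeks (3368.1, 3858.6 and 2534.6) than on the WT chow arrays (4090.9, 4582.9 and 4325.4), with a change of -0.43 (adjusted p = 0.062). It was called lower with the mean of probe sets, with the term for high Xist (-0.57, adjusted p = 0.017) and without the WT array of high Xist.

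Other genes of the pathway were read from lists outside the members. None of 4 tested ligand genes was called by limma in any comparison, and Ifnb1 read 2.1 to 20.9 over the 18 arrays and Ifng 0.3 to 11.5, with Ifng under the filter for dim genes. Of 6 receptor genes Il10rb, a subunit shared by the type III interferon and interleukin 10 receptors, rose by 1.20 ± 0.20 in AIM-KO at 12 weeks against chow (adjusted p = 0.00051) and by 0.88 ± 0.20 in WT at 20 weeks (adjusted p = 0.0072). The difference between the genotypes in its change from 12 to 20 weeks was -1.32 ± 0.29 (adjusted p = 0.03), and with the term for high Xist -1.29 (adjusted p = 0.27). Ifngr1 was called higher in AIM-KO at 12 weeks (0.41 ± 0.14, adjusted p = 0.047) and Ifnar1 lower in WT at 20 weeks (-0.42 ± 0.14, adjusted p = 0.049). Of 8 kinases and transcription factors, Irf8 (0.96 ± 0.25) and Irf1 (0.61 ± 0.18) rose in AIM-KO at 12 weeks and Irf3 fell (-0.58 ± 0.13), with adjusted p = 0.011, 0.026 and 0.0041. Of 14 genes of nucleic acid sensing, Tlr3 and Tlr13 were called higher in AIM-KO at 12 weeks, and of 7 feedback inhibitors Ptpn1 and Ptpn6 were. Over all genes 11.4% were called higher there, so these small counts were not read as results about the lists.

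A further list of 32 tested interferon-induced genes outside the members gave 15 higher in AIM-KO at 12 weeks against chow, 6 higher in AIM-KO at 20 weeks, 6 higher in WT at 12 weeks, and 11 higher and 1 lower in WT at 20 weeks. The shares of all genes called higher in these 4 comparisons were 11.4%, 4.29%, 3.52% and 8.72%, in that order. Of the 6 in AIM-KO at 20 weeks, Tor3a, Trim30a and Lgals3bp lost the call with the term for high Xist (adjusted p = 0.25, 0.31 and 0.72). Its median change was 0.54 in AIM-KO at 12 weeks and 0.49 in WT at 20 weeks. Trim30a, a TRIM protein that restrains Toll-like receptor signalling, rose by 1.58 ± 0.17 in AIM-KO at 12 weeks (adjusted p = 5.9e-06), and Cxcl10, a chemokine that attracts T cells, by 1.33 ± 0.26 (adjusted p = 0.0016). Cxcl9, another ligand of the same receptor, rose by 1.75 ± 0.31 in WT at 20 weeks (adjusted p = 0.00083), where Ifitm3, an inhibitor of viral entry, was the 1 lower gene (-0.49 ± 0.15, adjusted p = 0.034). In the direct test of the change from 12 to 20 weeks Trim30a (-1.01 ± 0.24, adjusted p = 0.039) and Ifi30, a lysosomal thiol reductase (-0.92 ± 0.22, adjusted p = 0.042), were lower in AIM-KO. With the term for high Xist they were at -1.10 and -1.07 (adjusted p = 0.23 and 0.19).

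Markers of recruited monocytes and macrophages also changed on the diet. Of 11 tested markers 8 rose in AIM-KO at 12 weeks against chow, 1 in AIM-KO at 20 weeks, 3 in WT at 12 weeks and 8 in WT at 20 weeks. Over all genes 11.4%, 4.29%, 3.52% and 8.72% were called higher in these comparisons, in this order. Mmp12, an elastase of macrophages, rose by 4.69 ± 0.43 in AIM-KO at 12 weeks and by 4.38 ± 0.43 in WT at 20 weeks, and the difference between the genotypes in its change from 12 to 20 weeks was -4.21 ± 0.61 (adjusted p = 0.0037), and -3.65 with the term for high Xist (adjusted p = 0.071). Mmp12 was also the 1 marker called in AIM-KO at 20 weeks against chow (2.05, adjusted p = 0.0064). With the term for high Xist it was at 2.89 and was not called (adjusted p = 0.069). The summed intensity of the list was 694.8 to 843.1 on the AIM-KO chow arrays, 1688.2 to 1912.9 at 12 weeks and 825.3 to 1118.3 at 20 weeks. In WT it was 754.5 to 942.6 on chow, 992 to 1560 at 12 weeks and 1646 to 2025.3 at 20 weeks. The sums were high in AIM-KO at 12 weeks and in WT at 20 weeks, where the median member stood at 0.74 to 0.97 and 0.40 to 0.61. In AIM-KO at 20 weeks the median member stood at 0.44 to 0.76 with these lower sums. Of the natural killer cell list 3 of 6 tested markers rose in AIM-KO at 12 weeks, with sums of 147.7 to 205.2 against 69.6 to 103.3 on chow, and Ncr1, its defining gene, was under the filter. Of 6 markers of plasmacytoid dendritic cells 2 rose in AIM-KO at 12 weeks, Ly6d by 5.90 and Tcf4 by 0.46, while the median change of the 6 was 0.33. The sum of that list, 949.9 to 1444.8 against 213 to 247.3 on chow, was carried by Ly6d. Of 8 markers of resident Kupffer cells 1, Clec4f, rose in AIM-KO at 12 weeks, and of 7 of liver endothelium 2 did, Lyve1 and Cdh5. With 11.4% of all genes called higher there, these small counts were not read as results about the cells. Of 7 T cell markers none was called by limma in any comparison. Of 10 hepatocyte markers 5 fell in AIM-KO at 12 weeks, with sums of 51614 to 55593 against 70683 to 75904 on chow. The share of all genes called lower there was 6.74% with the lowered pseudocount and 6.91% with the raised one. No marker in these lists was at 0, and the part of these cell types in the members' changes was not tested.

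**Figure D4:**
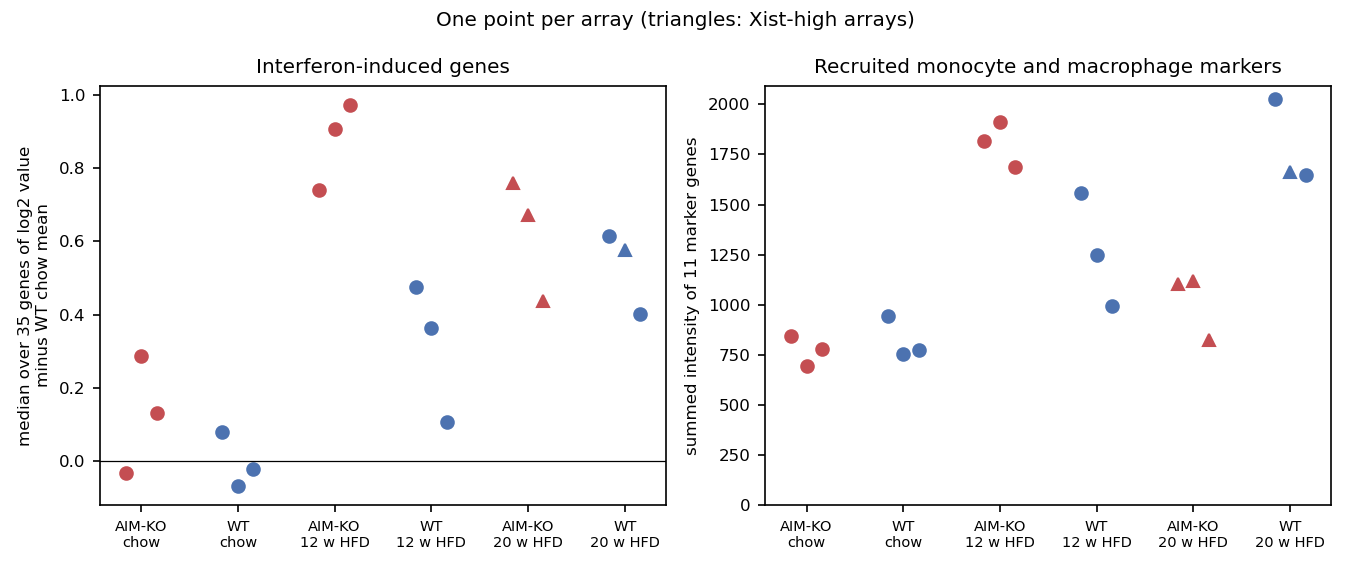
One point per array in each group, AIM-KO in red and WT in blue, with triangles for arrays of high Xist: left, the median over the 35 members of the log2 value minus the WT chow mean; right, the summed intensity of 11 markers of recruited monocytes and macrophages. Both panels are high in AIM-KO at 12 weeks (0.74 to 0.97 and 1688.2 to 1912.9), and in AIM-KO at 20 weeks the left panel stays at 0.44 to 0.76 while the right lies at 825.3 to 1118.3.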

How the data were processed

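Liver RNA (100 ng labelled per sample, per the labels' protocols) was measured on 18 arrays. The deposited intensity of each probe set is a linear value made by the authors with MAS5, per the submitters' processing notes; the software version and the genome build are not given in the sources used here. How they were scaled was read from the data: a 2% trimmed mean of 100 on each array. Of 45101 probe sets 34945 had 1 gene in the platform annotation, and 34741 of these were renamed by entrez id from a GRCm38.p6 gene table. The rest, with several genes or none, and 64 controls were left out. A gene's probe set of highest mean was used if it exceeded the 40th percentile of the array on 3 or more arrays. Probe sets of close relatives, as in the Ifit, Oas, Gbp and PYHIN families, may share signal.

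Values were taken as log2(intensity + 3.3), 3.3 being the 20th percentile of all values, without further normalization. limma 3.58.1 in R 4.3.3 fitted 6 group means on all 18 arrays, and 12 comparisons were tested 2-sided with Benjamini-Hochberg adjustment over 14694 genes, with called meaning an adjusted p under 0.05. The procedure was tested on simulated data. Precision is limited by how many arrays there are: 3 against 3 gave a median standard error of 0.22. The members, roles, lists and tests were chosen with earlier results of these data known. Any member may be named; of each other list, up to 3 called genes with the largest change, or the gene of smallest p where none was called, followed across diets and genotypes. Outside this rule and chosen after their values were seen are Ifng, Ncr1, Alb and the list members named without values. Alternatives were averaging all probe sets of a gene, no dim filter, quantile normalization, a pseudocount of 13.2 or 0.825, a replicate block, only the compared groups, a term for the 4 arrays with Xist above 1000, a term for the actin 3′ to 5′ ratio (2.25 to 4.22), and leaving out each array. The ratio was 4.22 on WT 20 weeks replicate 3, 3.79 on WT 12 weeks replicate 2 and 3.64 on WT 20 weeks replicate 1. On the AIM-KO arrays it was at most 3.06, so on the diet it was uneven between the genotypes.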

Additional observations from a re-analysis of the deposited data

Results flagged for a closer look

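The change from 12 to 20 weeks of HFD differed between AIM-KO and WT livers for 5 members in a direct test of the difference (limma, change in AIM-KO minus change in WT). The differences were -2.19 for Gbp2, -1.95 for Ifit2, -1.76 for Ifi207, -1.08 for Ifit3 and -1.27 for Usp18, with adjusted p of 0.036, 0.0072, 0.014, 0.049 and 0.038. All AIM-KO arrays at 20 weeks were high in Xist and 1 of the 3 WT arrays was. With a term for these arrays none of the 5 was called, while each kept its sign. When 1 array was left out, Ifit2 was called in 12 of 12 fits, Ifi207 in 8, Gbp2 in 3, and Usp18 and Ifit3 in 2. The second Gbp2 probe set gave -0.67.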

How the results depend on the processing

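No called value of a member reversed its direction under any alternative, but values that were not called did: 154 of 420 pairs of member and comparison turned sign in at least 1 setting, none of them called before or after. For 7 pairs the value was over 0.5 before, among them Gbp2 in AIM-KO at 20 weeks against chow (0.50, and -0.31 with the Xist term) and Igtp in AIM-KO against WT at 20 weeks (0.75, and -0.32). Of other printed values, Irf9 in WT at 20 weeks (0.02) was -0.23 with the Xist term and Irf7 in AIM-KO at 12 weeks (0.07) was -0.03 with the actin term. The count of members called in AIM-KO against WT at 12 weeks, 2 as reported, was 4 with the raised pseudocount, 1 with the mean of probe sets, 1 with only the compared groups, 0 with quantile normalization, 0 with no dim filter, 0 with the actin term, and 0 to 5 without 1 array. In AIM-KO against WT at 20 weeks it was 0, and 0 to 4 without 1 array. For 12 weeks against chow it was 18 in AIM-KO (15 to 19 without 1 array) and 7 in WT (3 with only the compared groups, 2 to 8 without 1 array). For 20 weeks against chow it was 9 in AIM-KO (1 with the Xist term, 2 to 10 without 1 array). In WT it was 15 (12 with the actin term, 12 with only the compared groups, 11 to 16 without 1 array). For 20 against 12 weeks in AIM-KO it was 3 (0 with the Xist term, 8 with only the compared groups, 1 to 3 without 1 array). For the difference between genotypes it was 0 for chow to 12 weeks (0 to 1 without 1 array), 0 for chow to 20 weeks (0 to 2), and 5 for 12 to 20 weeks: 3 with no dim filter, 3 with the mean of probe sets, 3 with only the compared groups, 2 with the actin term, 0 with the Xist term, and 1 to 6 without 1 array. The causes were not tested. The deviations of same-numbered arrays correlated weakly (mean 0.0406, range -0.087 to 0.23 over 45 pairs, 5 over 0.1), against a mean of -0.0202 over 90 pairs of other numbers, 4 over 0.1. Since not every pair was over 0.1, the numbers were not taken to pair the samples, although 11 of 18 arrays correlated best with their own number, a hint from the data and not the design. With the replicate block 1 member, Ifit2, was called in AIM-KO against WT at 20 weeks and 1, again Ifit2, in the difference from chow to 20 weeks; the other counts moved by at most 1.5 times, with Ifit3 lost from the difference for 12 to 20 weeks. Dim genes have understated changes, and 3 arrays per group limit every comparison.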
